A study of Bos taurus with 9 samples.

Results

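S100A8, S100A9, S100A12, LTF, HP and SAA3 are 6 defence genes of neutrophils and of the acute-phase response, chosen by name for their function and found in the data by Ensembl identifier. Of the 6, 5 have a row among the 21696 genes of the authors' deposited table, and SAA3 (ENSBTAG00000022396) is not analysed here. The table compares RNA sequencing of intercaruncular endometrium, the gland-bearing lining between the attachment sites of the placenta, from cattle (Bos taurus) with a short uterine tract (Short, 5 samples) or a normal one (Normal, 4 samples). The labels give no breed, age, cycle stage, infection status or batch for either group, and they do not say that each sample is a separate animal. The series title links the short tract to infertility. The deposited table names genes by identifier only, and the RefSeq table used here holds 0 Ensembl identifiers, so the pairing of each symbol with its identifier comes from the choice of the genes and was not checked against a file.

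Neutrophils are the first white blood cells to enter an inflamed uterus, and in cattle they do so after calving and during infection. S100A8 and S100A9 are small calcium-binding proteins that make up much of the neutrophil cytosol and pair as calprotectin, which withholds zinc and manganese from microbes. S100A12 is a related calcium- and zinc-binding protein of the same cells. LTF encodes lactoferrin, an iron-binding protein stored in neutrophil granules and also secreted by glandular epithelia. HP encodes haptoglobin, which binds free haemoglobin and is a major acute-phase protein of cattle, made mainly by the liver. SAA3 encodes a serum amyloid A protein made at local tissue sites. In whole tissue, more neutrophils and more RNA per cell cannot be told apart.

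None of the 5 measured genes was called different between Short and Normal. S100A8, S100A9, S100A12 and HP had a fold change above 1 in Short and LTF had one below 1, but all 5 intervals included no change. HP was the only one with a p-value. The other 4 were left without one, and their standard errors were among the largest of all genes at their expression level. The count of calls was 0 of 5 at an adjusted p-value under 0.05 by DESeq2 as deposited, which uses the Wald test and the Benjamini-Hochberg method, where 3.14% of the 16615 tested genes were called, 0.891% higher and 2.24% lower in Short. Tested genes are those with an adjusted p-value, 16615 of the 21234 genes with a p-value. With 1 tested gene among the 5, that background of calls allows no reading of the count. At an unadjusted p-value under 0.05 the count was also 0, against 13.2% of tested genes.

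The deposited values are means and fold changes over libraries, so no value per sample is given for any gene. A mean normalised count here is a read count divided by the library's size factor and averaged over every library in the authors' fit. The lowest means in the table fell on 14 distinct values for a single read, so that 14 libraries were fitted: 5 on the Short side, 4 on the Normal side and 5 on neither side. Size factors, which measure relative depth, lay between 0.928 and 1.11 in the 9 compared libraries and between 0.777 and 1.12 in the other 5. The means, the standard errors and the decision to give a p-value therefore rest on all 14 libraries. A mean is not the level in either group.

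S100A9 (ENSBTAG00000006505) averaged 783 normalised counts in the authors' deposited table. Its log2 ratio of Short to Normal was 2.15 ± 2.68 (SE), a 4.45-fold higher estimate in Short. The 95% Wald interval ran from 8.53-fold lower to 169-fold higher. The estimate was thus smaller than its own error, and the interval spans large changes in both directions.

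S100A8 (ENSBTAG00000012640), which encodes the other chain of calprotectin, averaged 222 normalised counts, and its log2 ratio of Short to Normal was 1.09 ± 2.43 (SE) in the authors' deposited table. That estimate is 2.13-fold higher in Short, and its interval ran from 12.7-fold lower to 57.5-fold higher. The estimates of both chains were above 0, and they came from the same libraries. They lie 1.06 apart on the log2 scale, less than either standard error. The table holds no covariance between genes, so this gap was not tested.

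S100A12 (ENSBTAG00000012638) averaged 517 normalised counts. Its log2 ratio of Short to Normal, 0.38 ± 1.44 (SE) in the authors' deposited table, was the smallest of the S100 genes. In fold terms it was 1.30-fold higher in Short, and the interval ran from 5.45-fold lower to 9.18-fold higher. In the RefSeq gene order of the assembly ARS-UCD2.0, S100A12 lies between S100A8 and S100A9 with no other gene among them. The estimates of these neighbours differed in size, but the interval of S100A12 lies within those of S100A8 and S100A9. Whether reads of one S100 gene were counted for another depends on the counting rules, not given in the sources at hand.

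LTF (ENSBTAG00000001292) had a mean of 1197 normalised counts, and 94.5% of all listed genes had a lower mean (in counts, not per length). It was the only gene of the 5 with an estimate below 0, with a log2 ratio of -0.49 ± 1.30 (SE) by the authors' deposited table. Its level was 1.41-fold lower in Short by that estimate, with an interval from 8.26-fold lower to 4.17-fold higher. Lactoferrin can come from glands as well as from neutrophils, and the table does not separate these sources.

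HP (ENSBTAG00000006354) averaged 54.2 normalised counts, and 46.2% of all listed genes had a lower mean (in counts, not per length). The authors' deposited table gives it a log2 ratio of Short to Normal of 2.17 ± 1.17 (SE), with an unadjusted p-value of 0.0637 and an adjusted p-value of 0.428 by DESeq2. The estimate is 4.52-fold higher in Short, and no change lies near the lower end of its interval, which ran from 1.09-fold lower to 22.2-fold higher. By p-value HP was number 2469 of the 16615 tested genes, and 521 genes were called. Its estimate was close to that of S100A9, at a standard error less than that of any of the S100 genes. The difference of 2.67 between the log2 fold changes of HP and LTF, the highest and the lowest of the 5, was not tested either.

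**Figure D1:**
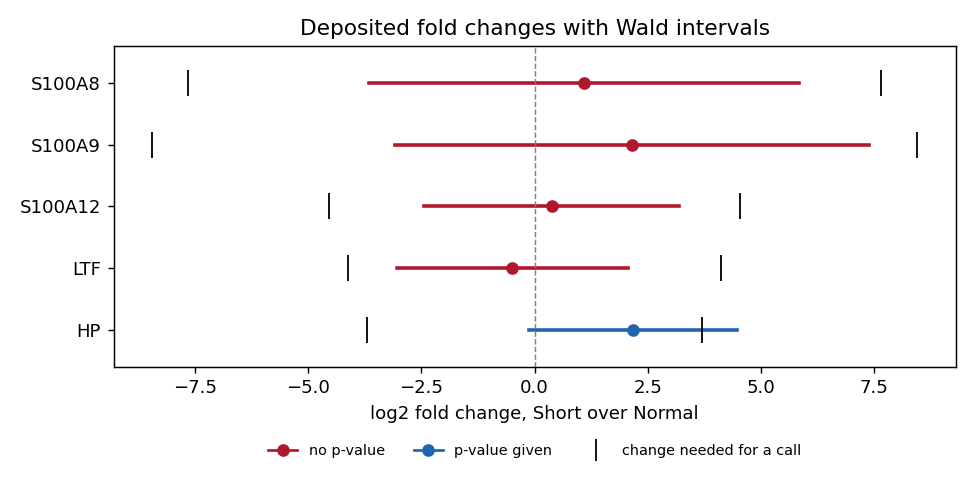
Deposited log2 fold change of Short over Normal (horizontal axis) for the 5 genes (vertical axis), with points for the estimates and lines for 95% Wald intervals, red for genes without a p-value and blue for HP, which has one. Black ticks mark the change in each direction that would have reached the smallest score of a called gene, 3.16, given the gene's standard error and, for the red genes, had a p-value been given. All 5 lines cross 0, and no point reaches its tick.

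As deposited, S100A8, S100A9, S100A12 and LTF could not be called at any fold change, since they have no p-value. The change that each standard error would have required, had a p-value been given, differed widely. The smallest absolute Wald score, the log2 fold change over its standard error, of any called gene was 3.16. At that score S100A9 would have needed a 353-fold change and S100A8 a 204-fold change. S100A12 would have needed 23.5-fold, LTF 17.4-fold and HP 13.1-fold. For S100A9 the log2 fold change needed was 3.93 times the one estimated, for S100A8 7.03 times, for S100A12 12.1 times, for LTF 8.34 times and for HP 1.71 times. An absence of calls among these genes therefore does not show similar levels in Short and Normal.

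Ranked among genes of similar mean, the 5 genes stood higher by their errors than by their fold changes. For HP the gap was slight, above 97.5% by its error and above 97.1% by its absolute log2 fold change. Genes of similar mean were taken as all other rows within 1.5-fold of the gene's own mean, and their values are a description with no test. For S100A8 these were 3328 genes with a median standard error of 0.33, and its own error was 7.29 times that. For S100A9 they were 2406 genes with a median of 0.31, and the ratio was 8.58. Only 1 of these other genes had a standard error as large as that of S100A8, and only 1 had one as large as that of S100A9.

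For S100A12 the ratio to the median error of 3022 genes was 4.65, and 8 of them had an error at least as large. For LTF it was 3.96 over 1437 genes, and 3 had one at least as large. HP stood less far out, with a ratio of 2.47 over 1874 genes, of which 46 had an error at least as large. The error was thus above that of at least 97.5% of genes of similar mean for each of the 5.

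**Figure D2:**
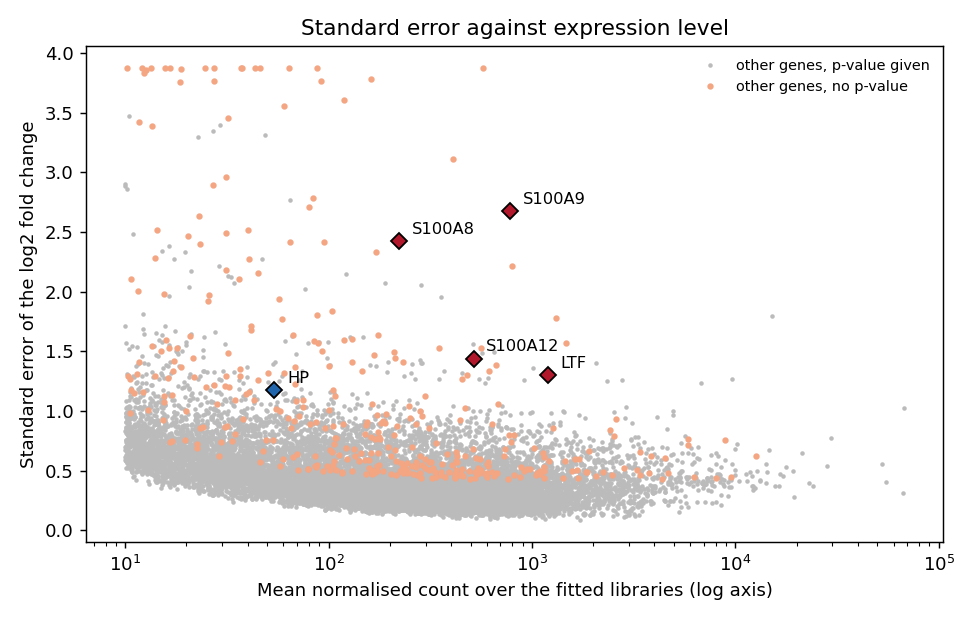
Standard error of the log2 fold change (vertical axis) against the mean normalised count on a log axis (horizontal axis) for genes with a mean of at least 10. Grey points are genes with a p-value, orange points genes without one, and diamonds the 5 genes, red without a p-value and blue with one. S100A8 and S100A9, with standard errors of 2.43 and 2.68, sit far above the grey band, and HP lies at its upper edge.

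Across the whole upper range of expression these errors were rare. Of the 7118 genes with a mean at least that of S100A8, 4 had a standard error as large as the 2.43 of S100A8, and both calprotectin genes are among these 4. None of the 4 was given a p-value. S100A12 and 15 others reached its error of 1.44, and 10 of these 16 had no p-value. LTF and 28 others reached its error of 1.30, of which 14 had no p-value and 1 was called.

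By fold change alone the genes differed among themselves. An absolute log2 fold change at least as large as that of S100A9 was found for 16 of its 2406 genes of similar mean. For HP it was found for 54 of 1874 and for S100A8 for 167 of 3328. LTF and S100A12 stood further in, above 77.5% and 70.3% of their genes of similar mean. Measured by the absolute Wald score, which sets the fold change against its error, S100A9 stood above 52.2%, S100A8 above 29.2%, LTF above 24.7% and S100A12 above 18.6%. HP alone kept a high place, above 82.9%.

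**Figure D3:**
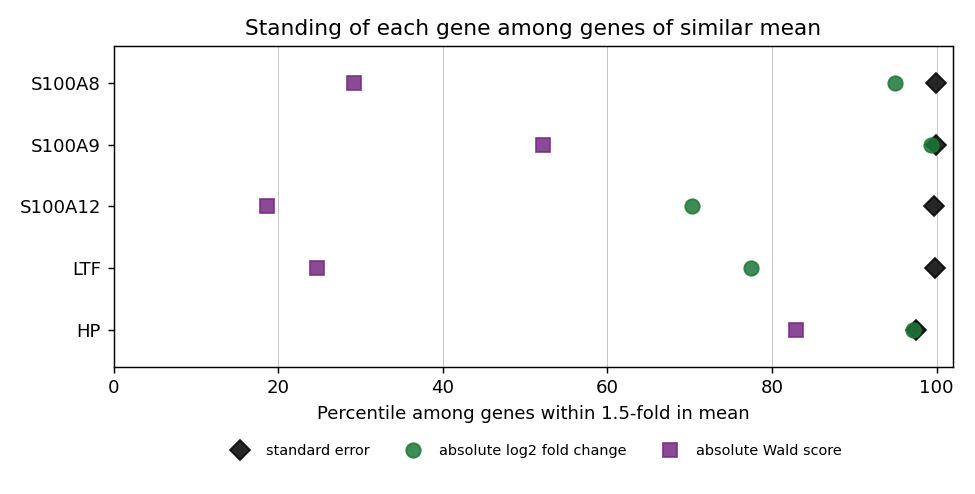
Percentile of each of the 5 genes (vertical axis) among other genes within 1.5-fold of its mean (horizontal axis, in percent), for the standard error (black diamonds), the absolute log2 fold change (green circles) and the absolute Wald score (purple squares). Every diamond lies at 97.5 or above, while the squares of S100A8, S100A12 and LTF lie below 30 and that of HP at 82.9.

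The missing p-values went with these errors. S100A8, S100A9, S100A12 and LTF, 4 of the 5 genes, had none, against 462 of all 21696 listed genes, that is 2.13%. Among the other genes of similar mean the share was between 1.89% and 2.67% for each of the 5 genes. DESeq2, named in the submitters' processing notes, by default withholds the p-value of a gene when 1 library's count is an outlier, but the table gives no reason for a missing one. Whether any library held such a count, and whether that was a Short, a Normal or an outside library, cannot be read from the table. All genes within the range of means of the 5 were ranked by standard error among genes of similar mean. Of the 10 equal classes of that rank (deciles), the lower 6 held 0 genes without a p-value, and in the highest 10.9% of 1044 genes lacked one. In the top 1% of standard errors 46 of 104 did. All 5 genes were in the highest decile and are counted in it. S100A8, S100A9, S100A12 and LTF were in the top 1% and are among those 46.

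**Figure D4:**
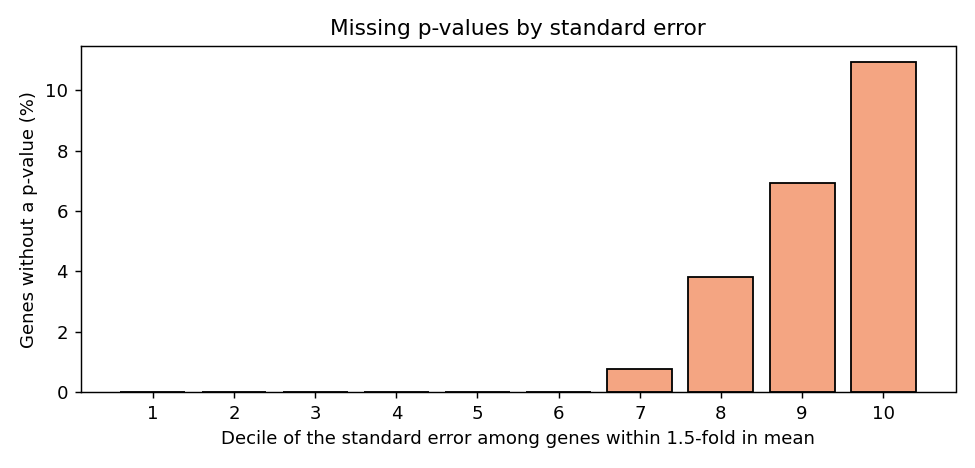
Percentage of genes without a p-value (bars, from 0) in each decile of the standard error, ranked among genes within 1.5-fold in mean, for the 10497 genes with means in the range spanned by the 5 defence genes. The share is 0 up to decile 6 and reaches 10.9% in the highest, which holds all 5 genes.

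The standard error bounds how much the genes varied between libraries. In a comparison of 5 with 4 libraries, a gene's dispersion, the square of its coefficient of variation beyond counting error, cannot exceed the value that explains the whole standard error. It cannot lie below that value by more than the counting error allowed by the floor of 0.5 that DESeq2 sets by default on fitted means. With that floor and a dispersion of 14, the number of libraries, the computed standard error is 3.87, which 1803 genes had within 0.001 and none exceeded by more.

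For S100A9 the dispersion lay between 5.65 and 7.65, a coefficient of variation of 2.38 to 2.77. For S100A8 it lay between 4.28 and 6.28, a coefficient of variation of 2.07 to 2.51. The standard deviation between libraries in the model was thus more than 2 times the mean for both calprotectin genes. For S100A12 the dispersion lay between 0.21 and 2.21, a coefficient of variation of 0.46 to 1.49. For LTF and HP the upper bounds were 1.81 and 1.47, and the lower bound was cut off at 0. A dispersion that low would need fitted means near the floor of 0.5. DESeq2 fits 1 dispersion to all 14 libraries, so this spread need not be that within Short or Normal.

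The deposited means also limit the levels that the groups can have had. If the 5 outside libraries held no reads of a gene, the group averages would be at their largest, taking the deposited fold as the ratio of averages. For HP these are about 129 normalised counts per Short library and 28.5 per Normal library. For S100A9 they are about 1858 and 418, and for S100A8 about 452 and 212. S100A12 would reach about 895 and 690, and LTF about 1576 in Short and 2219 in Normal. Reads in the outside libraries lower these averages by an amount that the table does not show.

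Taken as a list, the 5 genes had a median log2 fold change of 1.09, beside 0.04 for all tested genes and 0.13 for the 462 genes without a p-value. That median is the estimate of S100A8, whose standard error was 2.43, and of the 5 genes only HP is a tested gene. A shift of the list was not tested. The median standard error of the 5 genes was 1.44, beside 0.43 for all tested genes. Markers of neutrophils, other white blood cells, epithelium, stroma and liver could not be read, because the identifiers are not paired with symbols here. The part of neutrophil number, blood, glands or a single library in these values was not tested.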

How the data were processed

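The deposited file is a single table of the authors' own comparison. The submitters' processing notes name the build ARS-UCD1.2 and, as the authors' tools, HISAT2, SAMtools, HTSeq and DESeq2. Their versions, the annotation and the strand setting are not stated there. Per the file headers, the table holds the mean normalised signal (read counts scaled by size factors), the log2 fold change with its standard error, the Wald score, and the p-value with its adjusted p-value. Library totals are not used here.

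The planned count test needs counts per sample, so the authors' deposited values were described instead, and the named genes are all members with a row. The genes, lists and settings were chosen with earlier results of these data known. The other S100, neutrophil, acute-phase, receptor and cell type lists could not be matched to the identifiers (0 of 37063 reference genes carry one) and gave no value. Wald intervals, percentiles and bounds were computed with Python 3.11.15, pandas 2.3.3 and scipy 1.17.1. Simulated data were used to check the adjustment of p-values, the count of libraries, the upper bound on dispersion and the running median. The intervals, percentiles and lower bounds had no such check. No sequence is printed, as none was used here. The direction was taken from the table's name, Short first, and from the 5 and 4 libraries on its sides. P-values measure a spread between libraries that may be technical.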

Additional observations from a re-analysis of the deposited data

How the results depend on the processing

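The number of called genes stayed at 0 of 5 under all 8 alternatives: adjustment over every gene with a p-value, a threshold of 0.1, a re-centred and rescaled score, centring on the median of tested genes (0.04) or on a running median over expression, a minimum mean of 10, p-values from the score where missing, and a fold limit of 2. Except where p-values came from the score, only HP could be called, since the other 4 genes had no p-value. Leaving aside the fold limit, calls over all genes ranged from 194 of 16615 with the rescaled score to 706 of 16615 at the threshold of 0.1. Against that background the count of 0 allows no reading. The adjusted p-value of HP by DESeq2, 0.428, went from 0.413 to 0.840, and all 5 genes kept their direction under both centrings. With p-values computed from the score, the 4 genes without one had adjusted p-values of at least 0.845, and the settings that change only a p-value gave no other value for them. The percentile of the standard error among genes of similar mean moved to 100.0 for S100A8 and for S100A9 when only genes in a narrower range of means, or only tested genes, were taken, since no such gene had a larger error. With tested genes only, that of HP moved from 97.5 to 98.8. In the narrower range, the percentile of the absolute log2 fold change of S100A9 moved from 99.3 to 99.7, and the share of genes without a p-value near it, a setting chosen after seeing the data, from 1.91% to 1.33%; the cause was not tested. Another count tool, another normalisation and leaving out replicates or the outside libraries were not run, because they need counts per sample. No paired analysis was possible because no label ties a Short sample to a Normal one by animal, batch or day, and the only tests are the deposited ones.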
